A study of Mus musculus with 6 samples.

Results

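The plasminogen activator system was measured in mouse soleus through 4 probes, chosen because the platform annotation names their genes Plat, Plau, Plaur or Plg. These are 4 of the 203 genes and 4 of the 223 probes in the deposited table. Soleus is a slow, weight-bearing muscle of the lower leg, and every animal behind the data was a C57Bl/6 mouse whose hindlimbs had been suspended. The titles also carry the marks HUR, wt and HS7, which the labels do not spell out, and age, sex and the length of suspension are not given there. Total RNA had been taken from cryosections, with 3 microgram per array. There were 6 arrays and 1 group, so the values describe suspended muscle and no unloading effect could be measured. The labels do not say whether each array stands for a separate animal, and the spread between arrays may be partly technical.

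Plasminogen, the product of Plg, is an inactive protease made mainly in liver and carried in blood. Tissue-type activator (tPA, from Plat), released largely by endothelium and active on fibrin, and urokinase-type activator (uPA, from Plau), held at the cell surface by its receptor (uPAR, from Plaur), cut it to plasmin. Plasmin dissolves fibrin, degrades matrix glycoproteins and activates some metalloproteinases, and in muscle the urokinase arm is known for its part in regeneration after injury. Because the arrays measured RNA from whole muscle sections, fewer cells of a type and less RNA per cell cannot be told apart.

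Markers of muscle fibres were present on every array. All 8 muscle fibre markers probed were above 0 throughout, among them Myh7, the slow myosin heavy chain, between 0.555 and 2.13, against an array median of 0.0036 to 0.0061 over all probes. Replicate 1 stood apart from the rest. Its intensities summed to 37.5, whereas those of replicates 2 to 6 summed to between 15.3 and 18.5, and the deposited arrays had not been brought to a common total. Its single brightest probe held 41.6% of that sum, against 26.2% to 42.8% on the other arrays. Values without replicate 1 are therefore given beside those of the 4 genes, and of other genes where their spread rests on that array.

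Urokinase, its receptor and tissue-type activator each gave a value above 0 on all 6 arrays, and plasminogen did so on 5. Without replicate 1 all 4 genes were above 0 on every array. Over all 223 probes, 171 (76.7%) were above 0 on all 6 arrays, so detection of 3 of the 4 genes lay near the background rate. Intensities at or below 0 were taken as not detected. A stricter limit is the size of the most negative value on the same array, a rough measure of how far background alone can move a probe. It ran from 0.0005 on replicate 4 to 0.0020 on replicate 1. Plau and Plaur exceeded it on all 6 arrays, Plg on 4 and Plat on 2, while 134 of the 223 probes (60.1%) exceeded it throughout. Most Plat values thus lay inside the range that background reached.

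**Figure D1:**
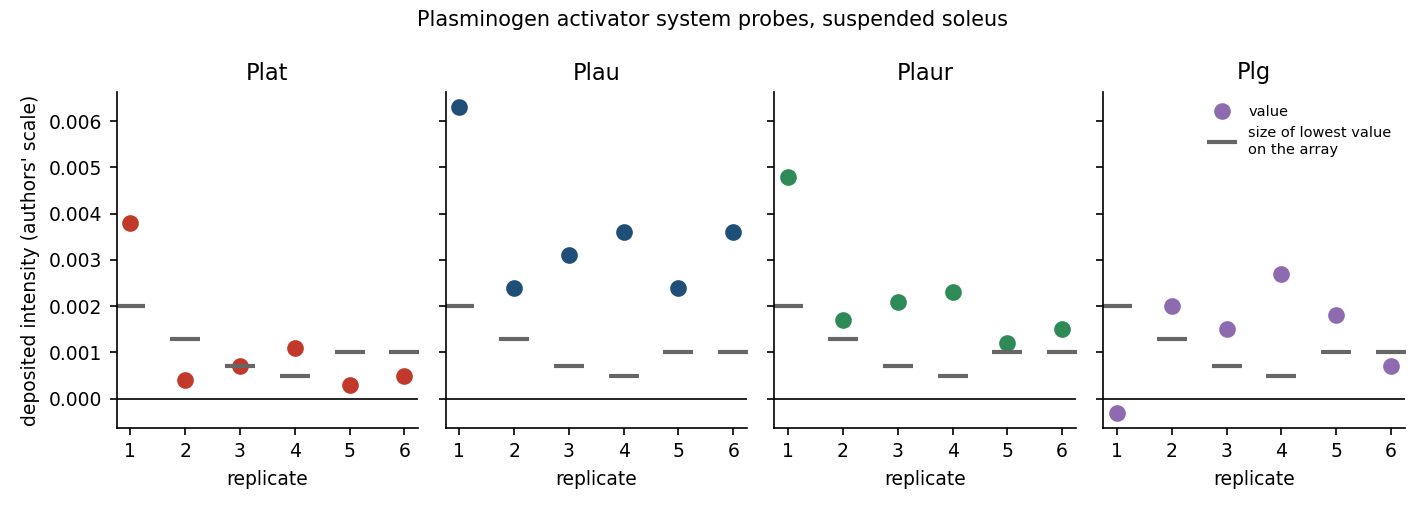
Deposited intensity (authors' scale, linear axis) of Plat, Plau, Plaur and Plg by replicate, with grey bars at the size of the lowest value on the same array. Plau and Plaur lie above the grey bar on all 6 arrays, Plat on replicates 1 and 4 only, and Plg falls to -0.0003 on replicate 1.

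Plau, the urokinase gene, had deposited intensities of 0.0063, 0.0024, 0.0031, 0.0036, 0.0024 and 0.0036 on replicates 1 to 6. Replicate 1 was the highest and the other 5 arrays lay within a narrow band of 0.0024 to 0.0036. The mean was 0.00357 ± 0.00144 (SD, n = 6), and 0.00302 ± 0.000602 without replicate 1 (n = 5). Values were also put on a log2 scale on which 0 is the array's median over the 171 probes detected on all arrays and 1 unit is a factor of 2. On that scale Plau had a level of -1.34 ± 0.39 (SD, n = 6), or 0.396 of the array median as a geometric mean. Of the detected probes, 27.5% had a lower mean level. Its SD was smaller than that of 105 of the 171 probes, and all 6 levels lay between -1.77 and -0.85.

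Plaur encodes the receptor that gathers urokinase at the cell surface. Its deposited intensities were 0.0048, 0.0017, 0.0021, 0.0023, 0.0012 and 0.0015 on replicates 1 to 6. Replicate 1 was again the highest, and replicate 5, the lowest, was 1.2 times the size of that array's most negative value. The level was -2.06 ± 0.48 (SD, n = 6), and -2.19 ± 0.30 without replicate 1 (n = 5). Levels without replicate 1 are centred again, on the probes above 0 on all the arrays kept. Only 17.0% of detected probes had a lower mean level, and the SD was exceeded by that of 83 of 171 probes. Over all detected probes, the receptor's spread was near the median SD, which was 0.48 with all arrays and 0.34 without replicate 1. Plaur is among the 43 probes in the lowest 25% of mean levels. Their median SD was higher, 0.77, and 0.61 without replicate 1. Only 16.3% of them had a smaller SD than Plaur over all arrays.

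Plat, the gene of tissue-type activator, had the lowest intensities on 5 of the 6 arrays. Its intensities were 0.0038, 0.0004, 0.0007, 0.0011, 0.0003 and 0.0005 on replicates 1 to 6. The value on replicate 1 lay well clear of all the others, whose mean was 0.0006. The level was -3.51 ± 1.09 (SD, n = 6), with 3.51% of detected probes lower, and the SD fell to 0.61 without replicate 1 (mean -3.86, n = 5). Its SD with all arrays was exceeded by that of 11 of the 171 probes. Among the probes in the lowest 25% of mean levels, 86.0% had a smaller SD. The deposited values carry 4 decimals, so that a step of 0.00005, the most that rounding can hide, is 16.7% of the Plat value on replicate 5 and 12.5% of that on replicate 2, but 1.32% on replicate 1.

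Plg, which codes for plasminogen itself, gave intensities of -0.0003, 0.0020, 0.0015, 0.0027, 0.0018 and 0.0007 on replicates 1 to 6. It was not detected on replicate 1, where the size of the most negative value was largest, at 0.0020. Of the Plg values on the other arrays only that on replicate 4 exceeded this size. That comparison is on deposited values and depends on the scaling of the arrays. The median of the probes detected on all arrays was 0.0115 on replicate 1, against 0.0065 to 0.0098 on the others. Whether Plg was lower on replicate 1 beyond background was not tested. On replicate 6 the Plg value was 0.7 of the size of that array's most negative value. On the 5 arrays that detected it the level was -2.33 ± 0.55 (SD, n = 5), and -2.09 ± 0.28 without replicate 6 (n = 4). Of the 223 probes, 4 (1.79%) were at or below 0 on replicate 1 and on no other array. Chosen after the values were seen, the named genes among them were Plg, Cyct and Btk, and the remaining probe is unnamed here. No liver marker was probed, so the level of Plg could not be set beside that of the organ from which plasminogen mainly comes.

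Plat, Plau and Plaur were higher on replicate 1 to unequal degrees. Against the mean of the other 5 arrays, its deposited value was 2.09 times as high for Plau, 2.73 times for Plaur and 6.33 times for Plat. Over all detected probes the median of this ratio was 1.52, and the sum of intensities was 2.14 times as high. A higher deposited value on replicate 1 than on any other array was found for 99 of 171 detected probes (57.9%), so the shared direction is near what most probes did. The ratio of Plaur was exceeded by that of 32 probes and the ratio of Plau by that of 56. The size of the Plat ratio is uncertain, because on 4 of the 5 arrays in its denominator Plat did not exceed the size of the most negative value.

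After median centring, replicate 1 exceeded the mean of the others by 2.29 for Plat, 0.96 for Plaur and 0.56 for Plau on the log2 scale, against 0.13 for the median probe. The SD among the other 5 arrays, on the same centring, was 0.63 for Plat, 0.31 for Plaur and 0.35 for Plau. Plat and Plaur remained higher on replicate 1 under all 7 ways of scaling tried, from 1.36 to 2.81 for Plat and from 0.39 to 1.49 for Plaur. The direction of Plau depended on the scaling, since its difference was 1.08 without centring, 0.20 with equal totals computed without the brightest probe and -0.016 with equal totals. A centred level highest on replicate 1 was found for 67 of the 171 probes (39.2%), and for Plat and Plaur but not for Plau, which was at -0.85 on replicate 6 and -0.87 on replicate 1.

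**Figure D2:**
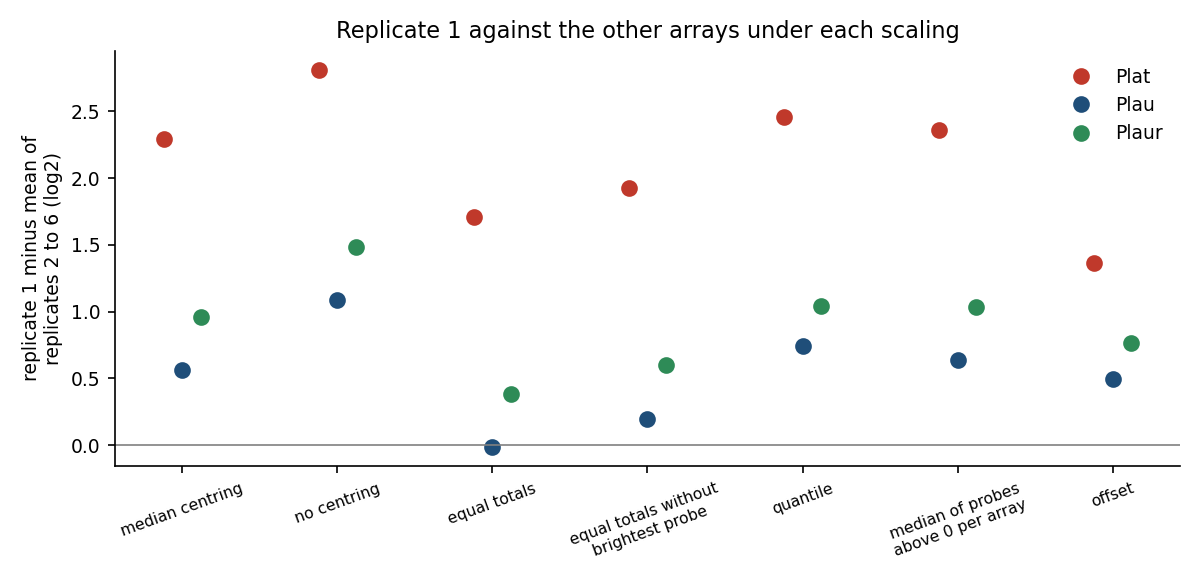
Difference on the log2 scale between replicate 1 and the mean of replicates 2 to 6 for Plat, Plau and Plaur under 7 ways of scaling the arrays. Plat lies between 1.36 and 2.81 and Plaur between 0.39 and 1.49, whereas Plau reaches -0.016 with equal totals.

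Markers of other cells did not move as 1 block on replicate 1. The 5 endothelial markers probed (Cdh5, Pecam1, Flt1, Kdr and Tek), all detected on every array, summed to 0.0711 there and to between 0.0698 and 0.0871 elsewhere. As a share of the array's sum they were at 0.189% on replicate 1, below the 0.398% to 0.503% of the other arrays. The 8 muscle fibre markers summed to 6.62 on replicate 1, against 2.29 to 3.02, or to 17.6% of the array's sum against 13.4% to 16.4%. Fabp4, the 1 fat marker probed, was at 0.0840 against 0.0255 to 0.0365, or 0.224% of the sum against 0.167% to 0.199%. Of the leucocyte list only Il6 and Il1b were probed, each above 0 on 2 of 6 arrays and never above 0.0005. No nerve or Schwann cell marker was probed. The part of these cells in the values of Plat and Plaur was not tested.

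Ratios within an array do not depend on how that array was scaled, though their size also reflects probe and labelling and is no ratio of transcript numbers. The order of intensities was Plat below Plaur below Plau on 6 of 6 arrays. The ratio of Plaur to Plau, receptor over urokinase, was 0.762, 0.708, 0.677, 0.639, 0.5 and 0.417 on replicates 1 to 6. Those values span less than a factor of 2 and include replicate 1, where both genes were at their highest deposited value. The mean log2 ratio was -0.73 ± 0.33 (SD, n = 6), and -0.79 ± 0.33 without replicate 1 (n = 5). Among all 14535 pairs of detected probes the median SD of such a log2 ratio was 0.73, and 0.53 without replicate 1. Over all arrays, 9.74% of pairs had a smaller SD than Plaur and Plau.

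The proportion of tissue-type activator to urokinase varied more from array to array. The ratio of Plat to Plau was 0.603, 0.167, 0.226, 0.306, 0.125 and 0.139 on replicates 1 to 6. Replicate 1 was the highest, and rounding of the deposited values alone leaves the ratio on replicate 5 anywhere from 0.102 to 0.149. The mean log2 ratio was -2.17 ± 0.85 (SD, n = 6), and -2.46 ± 0.53 without replicate 1 (n = 5). Of all pairs of detected probes, 60.0% had a smaller SD, and without replicate 1 the SD equalled the median of all pairs, 0.53. Of the 903 pairs among probes in the lowest 25% of mean levels, which include Plat and not Plau, 33.1% had a smaller SD than the 0.85 over all arrays. On the 2 arrays where Plat exceeded the size of the most negative value, replicates 1 and 4, the mean log2 ratio was -1.22.

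The ratio of Plat to Plaur had a mean and an SD on the log2 scale between those of Plaur to Plau and Plat to Plau. It was 0.792, 0.235, 0.333, 0.478, 0.25 and 0.333 on replicates 1 to 6. Its mean on the log2 scale was -1.44 ± 0.65 (SD, n = 6), and -1.66 ± 0.41 without replicate 1 (n = 5). On replicates 1 and 4 alone, where Plat exceeded the stricter limit, the mean was -0.70. Adding the size of each array's most negative value to all its values, so that none is below 0, brought the mean to -0.73. Of all pairs of detected probes, 42.3% had a smaller SD than the 0.65 over all arrays. Of the 903 pairs in the lowest 25% of mean levels, to which both genes belong, 15.9% did.

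Plasminogen changed rank with the array. The ratio of Plg to Plau was 0.833, 0.484, 0.750, 0.750 and 0.194 on replicates 2 to 6, and no ratio was formed for replicate 1. All 5 values were below 1, with a mean log2 ratio of -0.90 ± 0.87 (SD, n = 5). The ratio of Plg to Plaur was 1.18, 0.714, 1.17, 1.5 and 0.467 on the same arrays, above 1 on 3 and below 1 on 2 (mean log2 ratio -0.11 ± 0.68, n = 5). The ratio of Plg to Plat was above 1 on all 5 arrays, from 1.40 to 6.00. Replicate 6, where Plg was under the stricter limit, gave the lowest ratio in all 3 cases. Without it the mean log2 ratio was -0.54 ± 0.35 to Plau and 0.14 ± 0.45 to Plaur (SD, n = 4), so the sign of the latter rested on that array.

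**Figure D3:**
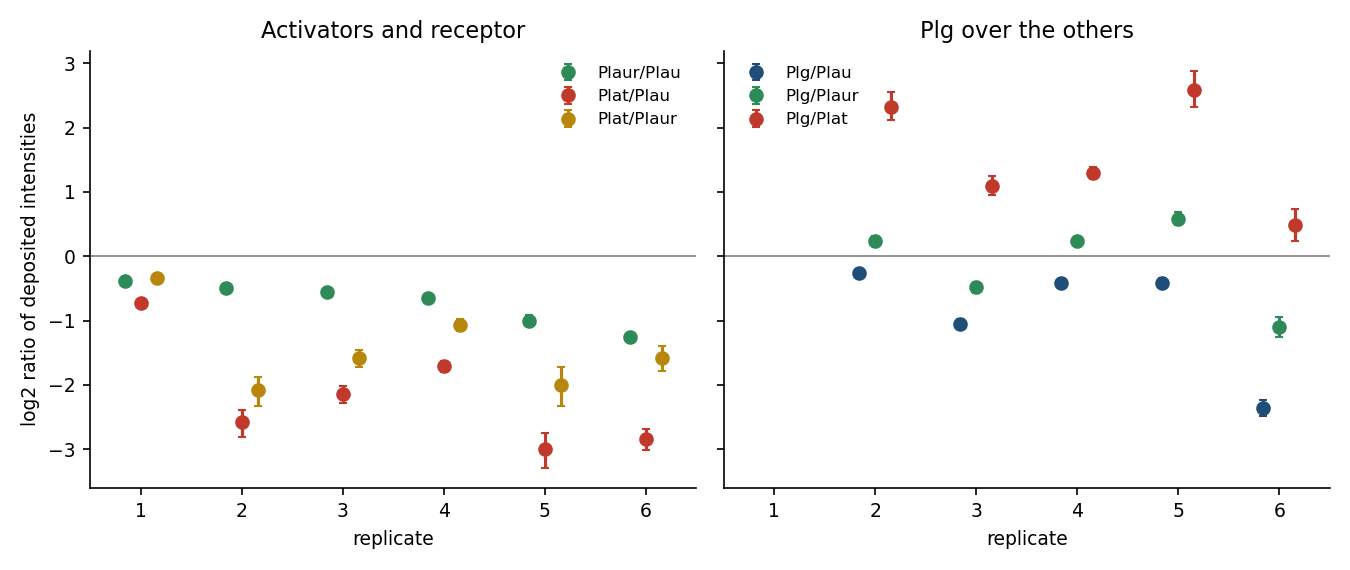
Log2 ratio of deposited intensities of 2 genes on the same array, by replicate, with bars for the range that rounding to 4 decimals allows. Plaur over Plau stays between -1.26 and -0.39, Plat over Plau runs from -3.00 to -0.73, and Plg ratios exist for replicates 2 to 6 only.

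The levels of Plat and Plaur were correlated over the arrays, and the relation rested on replicates 1 and 5. The 3 pairs among the genes detected on every array were compared on median-centred log2 levels. For Plat and Plaur Pearson's r was 0.945 over the 6 arrays (exact two-sided permutation p = 0.0097, Benjamini-Hochberg adjusted over the 3 pairs 0.029), and Spearman's rho was 0.943 (exact p = 0.017, adjusted 0.050). Replicates 1 and 5 lay farthest from the median of Plat, and without both r was 0.448 over 4 arrays. Without replicate 1 alone r was 0.811 (exact permutation p = 0.058, adjusted 0.18, n = 5). Without replicate 5 alone it was 0.940 (exact permutation p = 0.058, adjusted 0.18, n = 5), and without replicate 2 it was 0.976 (exact permutation p = 0.025, adjusted 0.075, n = 5). Without replicate 3, 4 or 6 it was 0.950, 0.962 and 0.950 (exact permutation p adjusted 0.025 for each, n = 5). Plat exceeded the size of the most negative value on only 2 of the 6 arrays. On replicate 5 it was 0.3 of that size, so its levels there and on most arrays lay within background. The 2 probes share every array and its background, and neighbour each other by identifier (21F for Plat, 21G for Plaur).

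**Figure D4:**
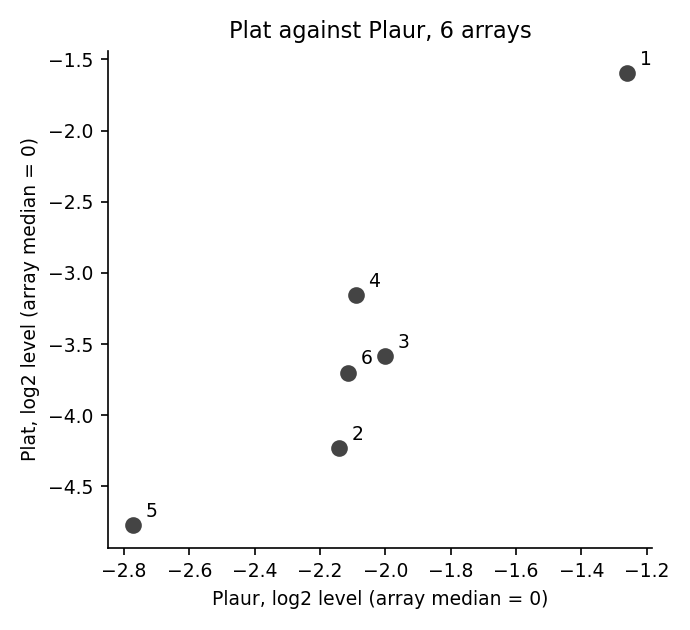
Log2 level of Plat against that of Plaur, each relative to the array median, with 1 numbered point per replicate. Replicate 1 lies at the upper right, replicate 5 at the lower left, and the other 4 arrays lie within -2.14 and -2 on the Plaur axis.

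Urokinase was not shown to follow either gene. For Plat and Plau r was 0.727 (exact permutation p = 0.086, adjusted 0.086) and rho 0.600 (exact p = 0.24, adjusted 0.24, n = 6). For Plau and Plaur r was 0.724 (exact permutation p = 0.079, adjusted 0.086) and rho 0.657 (exact p = 0.17, adjusted 0.24, n = 6). Without replicates 1 and 5 the first r was 0.205. Without replicates 1 and 6, the arrays farthest from the median of Plau, the second was 0.876 over 4 arrays, and without replicates 1 and 5 it was -0.087. Both pairs passed the threshold without centring, with quantile normalization and with the offset. They also did so without replicate 6, at r = 0.979 for Plat and Plau and 0.950 for Plau and Plaur (exact permutation p adjusted 0.025 for each, n = 5). With equal totals they were at 0.431 and 0.460 (exact permutation p adjusted 0.40 for each).

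The 3 probes most alike in pattern over the arrays were then named for each gene. Likeness was Pearson's r over the 6 arrays among 170 other detected probes, and because the probes were picked for it no p is given. For Plau the closest were Pdha1, a subunit of pyruvate dehydrogenase, with r = 0.961, the glycolytic enzyme gene Gapdh with 0.951 and the cytochrome oxidase subunit gene Cox8a with 0.950. Their values without replicate 1 were 0.933, 0.934 and 0.930, and none of them stayed among the closest 3 to Plau, where they took places 6, 5 and 7. For Plaur they were Plat with 0.945, Ace (angiotensin-converting enzyme) with 0.945 and Adam2 with 0.920. Without replicate 1, Ace and Adam2 stayed among its closest 3 probes, at 0.845 and 0.958. Adam2 was itself at a low level, -2.43 ± 1.11, and Ace at 0.08 ± 0.29 (SD, n = 6 each). For Plat they were Plaur, the transcriptional co-regulator gene Cited2 with 0.930 and the haem oxygenase gene Hmox1 with 0.926, and none of these stayed among the closest 3 without replicate 1. An r above 0.9 was reached by 9 probes for Plau, 7 for Plat and 5 for Plaur, while the median r over all detected probes was 0.18 for Plat and Plau and 0.19 for Plaur.

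Of the wider plasmin system, partners and targets were on the array and inhibitors were not. None of the 8 listed inhibitors had a probe, and none of the 6 related proteases and activators had one. Of 19 surface partners and clearance receptors 6 were probed, and of 25 targets 17. Among these 23 genes, 18 (78.3%) were above 0 on all arrays, near the 76.7% of all probes, and 5 on some. The 18 had a median level of 0.01 and a median SD of 0.37, against -0.02 and 0.48 for all 171 detected probes.

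All 6 probed partners and receptors were detected on every array. Itgb1, the integrin chain shared by many matrix receptors, had a level of 1.95 ± 0.38, and Vldlr, a lipoprotein receptor that also clears activator-inhibitor complexes, of 1.93 ± 0.17 (SD, n = 6 each). The integrin chain Itgb5 was at 0.05 ± 0.30, Igf2r, which binds uPAR and latent transforming growth factor, at -0.06 ± 0.36, and the growth factor receptor gene Egfr at -0.47 ± 0.28. Itgav, the integrin chain that binds vitronectin, was at -2.65 ± 0.32 with values of 0.0010 to 0.0023. It exceeded the size of the most negative value on 4 of 6 arrays. Without replicate 1 the SD was 0.15 for Itgb1, 0.22 for Igf2r, 0.16 for Itgb5 and 0.17 for Egfr (n = 5). On replicate 1, Itgb1 was 0.87 and Igf2r 0.75 above the mean of the other arrays, Itgav was 0.39 above, Vldlr 0.01 above, and Itgb5 and Egfr were at -0.64 and -0.59.

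Plasmin targets covered a wide range of intensities. Matrix glycoproteins were detected on all arrays for Fn1 (fibronectin, level 0.84 ± 0.43), Lamc1 (0.80 ± 0.66), Tnc (tenascin-C, 0.68 ± 0.67), Lama3 (0.49 ± 1.28), Thbs1 (-0.03 ± 0.57) and Lama2 (-1.70 ± 0.32), with SD over 6 arrays. Without replicate 1 the level was 0.56 ± 0.18 for Lamc1, 0.94 ± 0.39 for Tnc, -0.20 ± 0.29 for Thbs1 and 0.88 ± 1.06 for Lama3 (SD, n = 5 each). Fn1 and Igf1 have 2 probes each, and the one of higher mean was used. The laminin chain Lamb1 was above 0 on 2 arrays only. On replicate 1 Lamc1 and Thbs1 were 1.59 and 1.24 above the mean of the other arrays, whereas Tnc was at -1.40 and Lama3 at -2.14.

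Among the metalloproteinases that plasmin acts on or alongside, Mmp14, the membrane-bound activator of gelatinase A, was at -0.68 ± 0.25 and Mmp2, gelatinase A itself, at -1.51 ± 0.50 (SD, n = 6 each). Mmp9, gelatinase B, was above 0 on 4 arrays, with 0.0040 on replicate 1 and at most 0.0005 on the others. Mmp3, stromelysin, was above 0 on 2 arrays and never above 0.0004.

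Factors that plasmin or urokinase can free or activate were detected unevenly. Igfbp5, a binding protein that holds insulin-like growth factors, was at 1.87 ± 0.43, Igf1 at 1.59 ± 0.47, Tgfb1 at -0.23 ± 0.13 and Vegfa at -0.93 ± 0.29 (SD, n = 6 each). Hgf, whose precursor urokinase can cleave, was above 0 on 4 arrays and reached 0.0012. Fgf2 was above 0 on 3 arrays and reached 0.0007. Hgf exceeded the size of the most negative value on 1 array and Fgf2 on none. Neither was above 0 on replicate 1, where that size was 0.0020, larger than any value of these 2 genes.

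**Figure D5:**
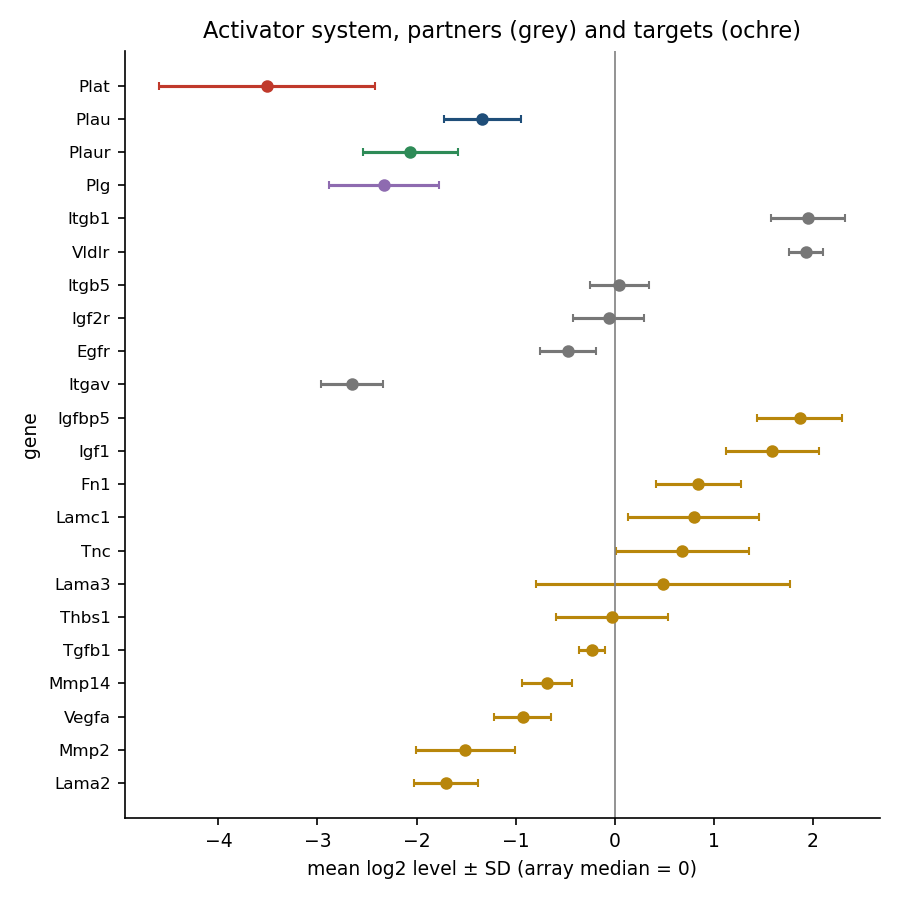
Mean log2 level with SD, relative to the array median, for the activator system (top 4 genes), the 6 surface partners in grey and the 12 targets detected on all arrays in ochre. Plg is drawn from 5 arrays and the other genes from 6, and the 4 members lie between -3.51 and -1.34.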

How the data were processed

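The authors deposited 1 background-subtracted intensity per probe and array, linear and with 4 decimals. Of the 1338 values 171 are at or below 0. The scanner, the way background was subtracted and any scaling are not stated by the labels or the table, and the number of arrays limits the precision. Probes were named through the platform annotation, and all 4 gene numbers (18791, 18792, 18793 and 18815) were found in the RefSeq gene table of GRCm38.p6 with unchanged symbols. No genome positions are given, since no build is named. The log2 of each value above 0 was taken with no pseudocount and centred on each array's median over the 171 probes above 0 on all arrays. Where 1 array was left out, levels were centred again on the probes above 0 on all the arrays kept. Each correlation was tested by exact enumeration of its 720 pairings, and the permutation test and the centring were tested on simulated data (Python 3.11.15, numpy 2.4.6, scipy 1.17.1). Named genes are the 4 members, all probed genes of the wider list, the marker lists and the 3 probes most like each member. The members and lists were chosen with earlier results of these data known. Other scalings, a stricter detection limit, an offset and leaving out arrays were tried.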

Additional observations from a re-analysis of the deposited data

Results flagged for a closer look

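The values below have 1 of the 6 arrays set off from its nearest neighbour by more than 0.625 of the whole range, the critical value of Dixon's test, a result that about 1 group in 20 gives by chance. Of 33 such sets, 6 were beyond that value. The deposited value on replicate 1 was outlying and highest for Plat (ratio 0.771), Plau (0.692) and Plaur (0.694). The same was true of 49 of the 171 probes detected on all arrays, and the sum of intensities was itself outlying on replicate 1 (0.855). The median-centred log2 levels of these 3 genes were not beyond the critical value, nor were their ratios within arrays. Deposited values are linear and uncentred, whereas levels are log2 and centred. Dixon's test was not run with the scale alone or the centring alone changed, so the part of each was not tested. As linear multiples of the array median, replicate 1 was at 0.330 for Plat, 0.548 for Plau and 0.417 for Plaur. The highest values on the other arrays were 0.112, 0.554 and 0.25. Among the wider list, the centred levels of Itgb1 (0.693) and Lamc1 (0.782) were beyond that value too, both highest on replicate 1. Over all 171 detected probes, 13 had a centred level outlying and highest on replicate 1, and 27 one outlying on any array.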

How the results depend on the processing

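The detection count (3 members on all arrays) was 2 with the stricter limit, under which the arrays detecting Plat went from 6 to 2. Adding the size of each array's most negative value (the offset) moved the level of Plat to -2.35, and the mean log2 ratios of Plat to Plau to -1.24, of Plat to Plaur to -0.73 and of Plg to Plat to 0.35, the last over 6 arrays. With both genes above the stricter limit (2 arrays) the first 2 ratios were -1.22 and -0.70. The correlation of Plat and Plau was 0.945 without centring, 0.785 with quantile normalization and 0.790 with the offset (exact permutation p adjusted 0.017, 0.028 and 0.0083). That of Plau and Plaur was 0.888, 0.827 and 0.798 (exact permutation p adjusted 0.028, 0.028 and 0.029). Leaving out 1 array at a time gave 0.811 to 0.976 for Plat and Plaur, 0.507 to 0.979 for Plat and Plau, and 0.498 to 0.950 for Plau and Plaur. With 5 arrays fewer pairings exist, so p-values are coarser. Without replicates 1 and 5, chosen after seeing the data, the correlation was 0.448 for Plat and Plaur and -0.087 for Plau and Plaur. Plau on replicate 1 against the others went from 0.56 to -0.016 with equal totals. The other alternatives moved no member's mean level or mean log2 ratio by more than its SD. The cause of these shifts was not tested. Quantile normalization gives no value for Plg, which is not above 0 on all arrays. Plat lies mostly within background, which limits its level, ratios and correlations.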
